A study of Rattus norvegicus with 9 samples.

Results

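In rat cardiac fibroblast cultures of 3 ages, 85 genes peaked in the neonatal cultures, out of 12786 genes with normalised values. A gene was taken when its lowest neonatal library held at least 1.5 times the normalised count of its highest fetal or adult library, and when its neonatal mean was at least 100. A normalised count is the number of reads of a gene divided by 1 size factor for its library. The 85 genes are 0.665% of the table and 0.967% of the 8787 genes with a neonatal mean of at least 100. The same rule with another age on top picked 333 fetal and 1206 adult genes, and its mirror image, every neonatal library lowest, picked 59. Because the normalised counts chose the genes, the excess of neonatal over fetal and adult levels is given as a description, without a test.

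Cardiac fibroblasts build the connective tissue of the heart, and around birth this tissue grows quickly as the load on the left ventricle rises. Fibroblasts secrete fibrillar collagens and matricellular proteins, while vessel walls are wrapped in mural cells, the smooth muscle cells and pericytes that contract through smooth muscle myosin and relax when nitric oxide activates soluble guanylate cyclase. Notch3 on mural cells receives the ligand Jagged1 and is a textbook regulator of their differentiation.

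The cells came from Sprague Dawley rats at embryonic day 18 (fetal), postnatal day 1 (neonatal) or 7 weeks of age (adult), and 3 libraries were made per age. All were primary cultures at passage 0, grown in T75 flasks until confluent in serum-containing medium with ascorbic acid, so every group shares the culture, and the labels name no treatment or genetic change. The labels name no sort, sex or number of animals, and nothing in them says that libraries of 1 age came from separate isolations, so p-values measure the spread between these libraries, which may be technical. Libraries held 13392825 to 22850491 assigned reads, the adult ones being the shallowest.

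Fetal replicate 3 stood apart from its group, which touches every comparison with fetal cultures. It differed from fetal replicates 1 and 2 by a chi-square of 90.02 and 97.3 per degree of freedom over genes, against 3.94 between those 2 libraries and 2.05 to 2.76 between neonatal libraries. The 9 epithelial markers summed to 4265 normalised counts in it and to 100.1 and 122.5 in the other fetal libraries, and the 8 skeletal muscle markers to 6602 against 2509 and 2635. The comparison of adult with fetal libraries and the median folds over fetal libraries are therefore given with and without it, while other values against fetal libraries include it unless stated. Adult replicate 1 also stood apart, though by less, differing from adult replicates 2 and 3 by 25.84 and 42.96 on the same measure. Between adult replicates 2 and 3 the value was 6.763. Folds over the adult mean include adult replicate 1. Fibroblast markers summed to 447603 to 897058 in fetal, 1187010 to 1291308 in neonatal and 449553 to 586928 in adult libraries, and 1 of the 10, Col3a1, is among the 85 genes. Without Col3a1, which the rule chose for its neonatal peak, the sums were 324380 to 629414, 687734 to 761424 and 312053 to 410289. Such sums follow the most abundant markers. Counted gene by gene with edgeR, 4 of the 10 were higher and 0 lower in neonatal than fetal libraries (18.3% and 18% of all genes tested). Against adult libraries 4 were higher and 3 lower (31.8% and 31.6% of all genes tested). Only Col3a1 and Ddr2 were higher than at both other ages. Markers of other cell types were detected too. The 16 cardiomyocyte markers summed to 187795 to 260716 in fetal, 115254 to 126683 in neonatal and 5273 to 5514 in adult libraries, where Csrp3 was at 0 in every library. The 14 macrophage markers summed to 258 to 1270 in fetal, 2788 to 3082 in neonatal and 75622 to 107221 in adult libraries, and Cd163 was at 0 in all fetal and neonatal ones. In such bulk samples, fewer cells of a type and less RNA per cell cannot be told apart, and the part of these cells in the neonatal peak was not tested.

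Together the 85 genes took 8.32% ± 0.130 (SD, n = 3) of all counts in neonatal libraries, 4.20% ± 1.18 in fetal and 3.37% ± 0.312 in adult ones. Without the 4 highest (Col3a1, Sparc, Col4a1 and Itgb1) the shares were 2.07% ± 0.0188, 0.987% ± 0.320 and 0.865% ± 0.0550. The neonatal mean exceeded the fetal mean by a median of 2.46-fold, from 1.65 to 13.04 (2.10-fold, from 1.53 to 8.96, without fetal replicate 3), and the adult mean by a median of 2.55-fold, from 1.57 to 31.2. Neonatal means ran from 109 to 516892 normalised counts with a median of 1410, and 26 genes were under 500. The lowest neonatal library reached 2 times the highest other library in 22 genes and 3 times in 4. That highest other library was fetal in 59 genes, 38 of them in fetal replicate 2, and adult in 26.

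**Figure D1:**
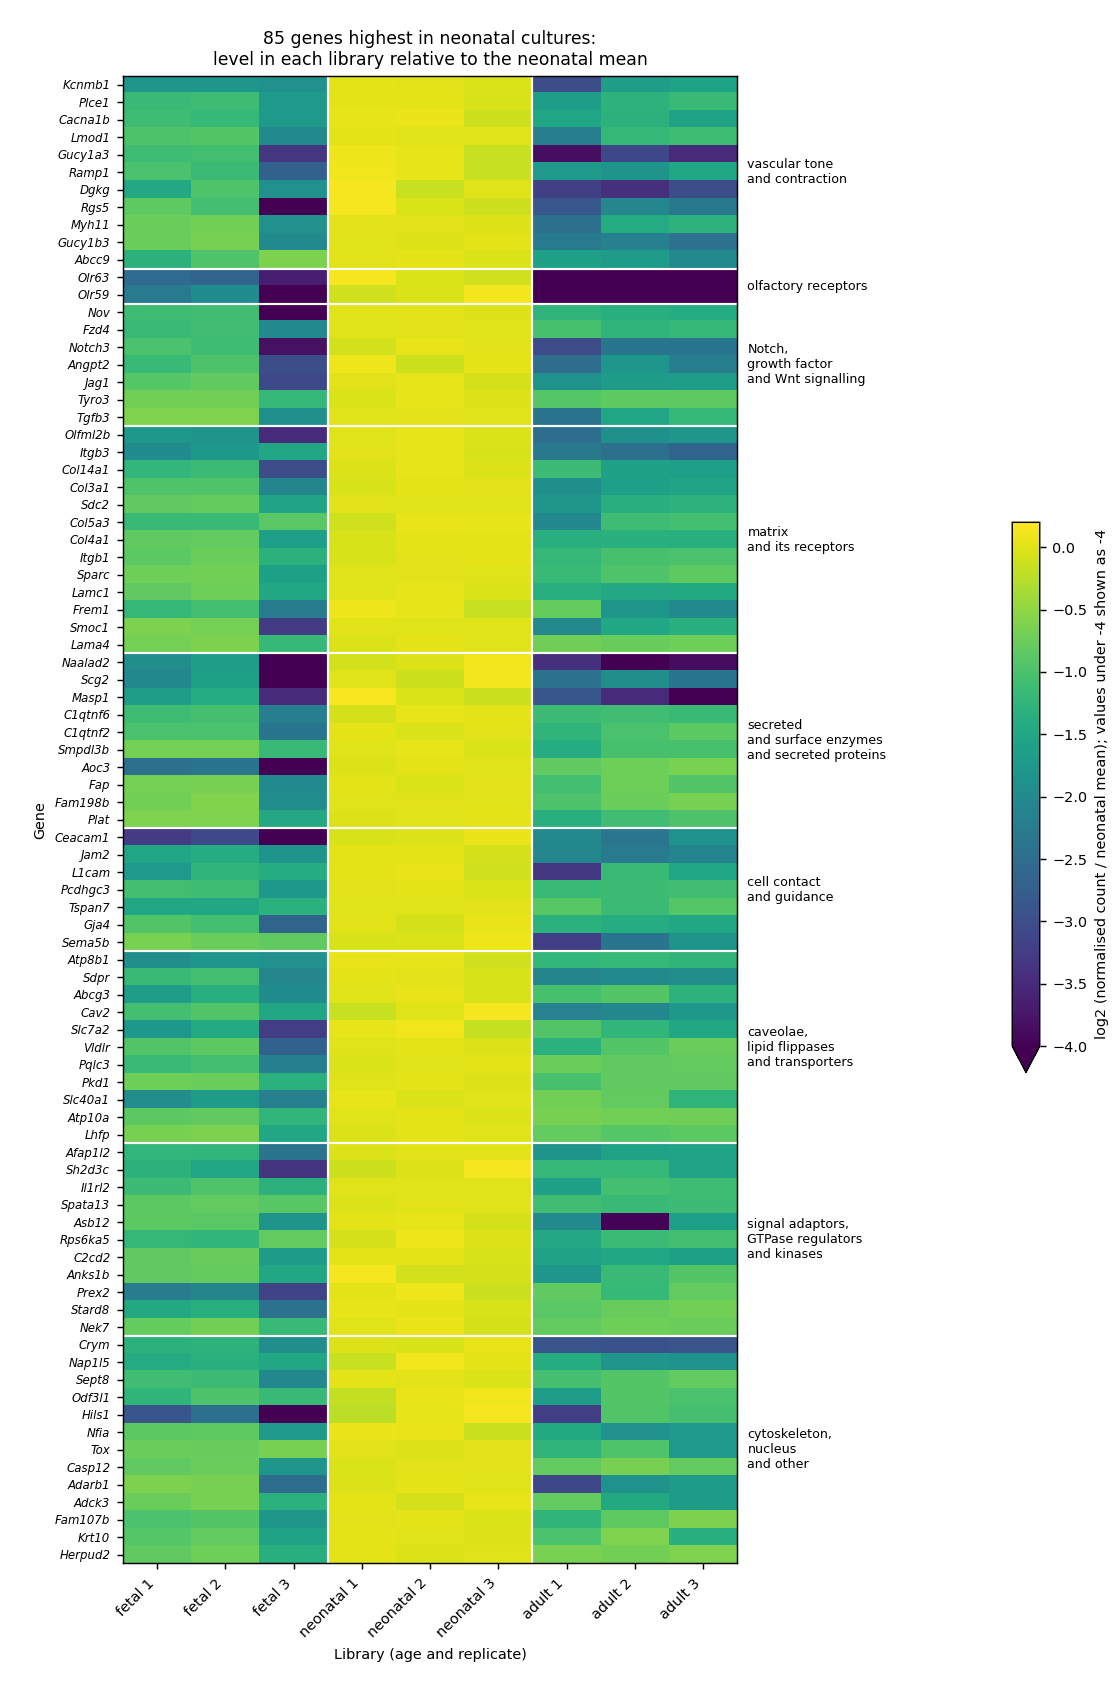
Each row is 1 of the 85 genes and each column 1 of the 9 libraries; the colour gives the log2 of the normalised count over the gene's neonatal mean, with values under -4 shown as -4. Rows are grouped by what the genes encode, and the columns for fetal replicate 3 and the adult libraries hold the darkest cells, such as Olr59, Olr63 and Naalad2.

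The neonatal libraries resembled each other closely in these genes, as in others. The rule takes the lowest neonatal library and so works against genes with a wide neonatal spread. The median SD of the 85 genes was 3.14% of the mean in neonatal libraries, near the 3.80% of all genes with a neonatal mean of at least 100. In fetal libraries it was 31.6% against 10.7%, and in adult libraries 14.1% against 8.03%. Fetal replicate 3 was the lowest fetal library in 76 of the 85 genes (89.4%, against 46.9% of genes with a neonatal mean of at least 100). In 37 of them (43.5%) it held less than 0.5 times the mean of the other fetal libraries, which was true of 3.39% of genes with a neonatal mean of at least 100. The median gene stood at 47.8%, 50.4% and 27.3% of its neonatal mean in fetal replicates 1, 2 and 3, and at 36.6%, 40.9% and 39.5% in the adult ones. Adult replicate 1 was the lowest adult library in 45 genes (52.9%, against 37.7%).

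**Figure D2:**
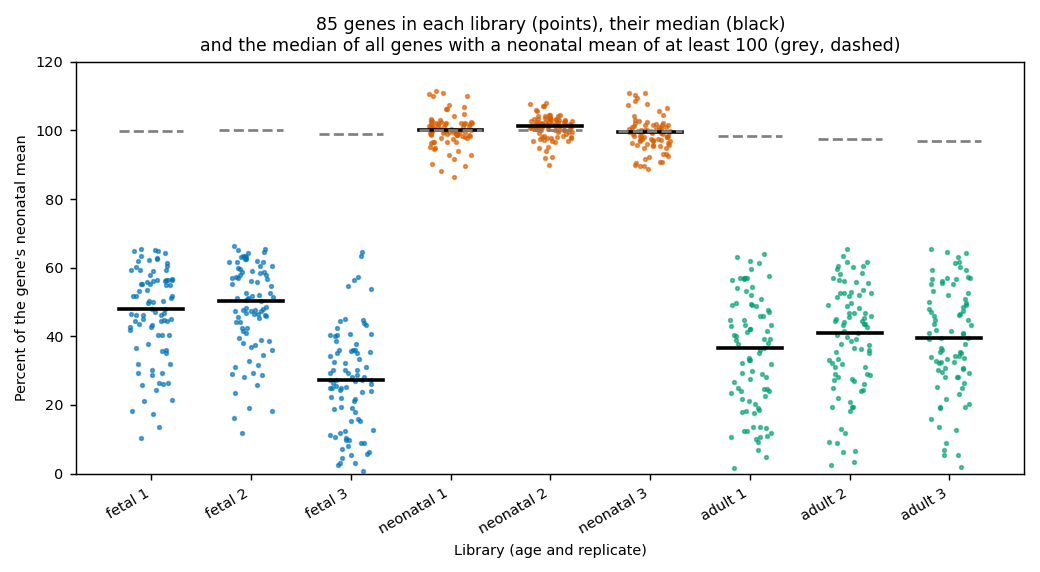
Each point is 1 of the 85 genes in 1 library, as a percent of that gene's neonatal mean; black bars are the medians of the 85 genes and dashed grey bars those of all genes with a neonatal mean of at least 100. Fetal and adult points lie well under 100 because the rule placed them there, and the median of fetal replicate 3, 27.3%, is the lowest of the 9.

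The sharpest peaks belonged to a pair of olfactory receptor genes from 1 cluster. Olr63 had the largest ratio of lowest neonatal to highest other library, 5.38, and Olr59 the next, 3.601. Both encode G protein-coupled receptors of the olfactory family. RefSeq names Olr63 as Or51e1, and Olr59 goes by the synonyms Or51e2 and Olfr78, a receptor known outside the nose from vascular smooth muscle and the kidney, where it senses short-chain fatty acids. With the libraries always listed as replicates 1 to 3, Olr63 had normalised counts of 107, 100.1 and 49.4 in the fetal, 684, 602 and 578 in the neonatal and 29.7, 39.1 and 12.7 in the adult libraries. Olr59 had 102, 125 and 11.7 in the fetal, 449, 474 and 530.4 in the neonatal and 7.74, 12.2 and 26.7 in the adult libraries. Fetal libraries lay between neonatal and adult ones for both genes, apart from fetal replicate 3, which fell among the adult libraries for Olr59 and next above them for Olr63. The neonatal mean was 7.26-fold the fetal and 22.90-fold the adult mean for Olr63, and 6.10-fold and 31.19-fold for Olr59. The adult values rest on 10 to 32 reads per library for Olr63 and 6 to 21 for Olr59.

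On rn6, the assembly of the deposited counts, Olr63 is a gene of 1 exon (chr1:167870452-167871405, plus strand) and Olr59 one of 2 exons (chr1:167906037-167911961, minus strand), with 34632 bases between them. The 3 olfactory receptor genes in that gap had at most 4 reads in any library, and the same held for all 14 olfactory receptor genes within 200 kb of the pair, those 3 included. Of 1196 olfactory receptor genes in the count table, 1144 had no read at all, and Olr63 and Olr59 were the 2 that were abundant enough to be tested. The next highest, Olr1105, had 28 reads over the 9 libraries. The promoter sequences of the pair are shown because the pair shares the pattern; they come from RefSeq on GRCr8, 250 bases before the annotated start, with capitals for TATAAA read on the opposite strand (TTTATA):
Olr63 (chr1:166559971-166560220, plus strand): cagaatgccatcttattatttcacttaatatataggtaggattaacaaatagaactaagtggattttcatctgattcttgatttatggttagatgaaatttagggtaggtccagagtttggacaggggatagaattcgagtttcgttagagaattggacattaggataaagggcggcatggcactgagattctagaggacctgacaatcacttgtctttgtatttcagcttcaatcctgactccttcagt
Olr59 (chr1:166610904-166611153, minus strand): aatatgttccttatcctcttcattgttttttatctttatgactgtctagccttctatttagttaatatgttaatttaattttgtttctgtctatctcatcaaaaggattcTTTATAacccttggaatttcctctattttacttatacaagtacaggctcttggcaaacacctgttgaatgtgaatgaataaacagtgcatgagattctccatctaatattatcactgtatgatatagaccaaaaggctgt
The Olr59 stretch holds 1 such match, 140 bases before the start, and the Olr63 stretch holds none of the motifs searched.

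Another group of the 85, with less sharp peaks, held genes of vascular tone. Gucy1a3 and Gucy1b3, now named Gucy1a1 and Gucy1b1, encode the alpha and beta subunits of soluble guanylate cyclase, the nitric oxide receptor that makes cyclic GMP and relaxes smooth muscle. Gucy1a3 had normalised counts of 825, 852 and 177 in the fetal, 1895, 1847 and 1603 in the neonatal and 124, 209 and 157 in the adult libraries. Gucy1b3 had 2057, 2184 and 867 in the fetal, 3451, 3405 and 3530.4 in the neonatal and 729, 768 and 659 in the adult libraries. In both genes fetal replicates 1 and 2 sat between neonatal and adult libraries, whereas fetal replicate 3 fell among the adult libraries for Gucy1a3 and just above them for Gucy1b3. On a scale of reads scaled to library size and exon length (CPM per kilobase), the level of the beta subunit was the higher one at every age, with 64.7 against 40.2 in neonatal and 13.3 against 3.66 in adult libraries. They are neighbours, Gucy1b3 at chr2:180976939-181026001, minus strand and Gucy1a3 at chr2:181047526-181102793, minus strand, with 21525 bases and no other gene's exon between them. These 2 pairs were the only ones among the 85 genes within 100 kb of each other. Their promoters are shown for the same reason as above, with the short SMAD motif CAGAC, or GTCTG on the opposite strand, in capitals:
Gucy1b3 (chr2:169696988-169697237, minus strand): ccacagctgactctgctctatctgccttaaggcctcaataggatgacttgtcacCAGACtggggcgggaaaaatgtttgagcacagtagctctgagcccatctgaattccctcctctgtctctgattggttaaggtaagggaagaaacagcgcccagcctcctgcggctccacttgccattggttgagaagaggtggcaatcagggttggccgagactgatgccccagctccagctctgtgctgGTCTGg
Gucy1a3 (chr2:169779624-169779873, minus strand): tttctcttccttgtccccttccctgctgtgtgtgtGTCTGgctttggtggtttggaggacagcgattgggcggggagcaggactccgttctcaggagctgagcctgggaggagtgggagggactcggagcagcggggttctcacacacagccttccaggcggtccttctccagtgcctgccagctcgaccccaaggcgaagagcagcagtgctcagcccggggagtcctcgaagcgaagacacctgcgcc
Gucy1b3 holds 2 matches, starting 196 and 6 bases before the start, and Gucy1a3 holds 1, at 215 bases.

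Ion channel subunits were also among the 85 genes. Kcnmb1, the beta subunit that tunes the calcium-activated potassium channel of smooth muscle, had 168, 169.6 and 161 in the fetal, 598, 589 and 572 in the neonatal and 73.5, 188 and 198 in the adult libraries. Its 3 fetal libraries were close together, and adult replicate 1 was the low one. Abcc9, the sulfonylurea receptor subunit of the ATP-sensitive potassium channel and a pericyte marker, had 197, 250.3 and 315 in the fetal, 493, 499 and 474 in the neonatal and 161, 151 and 123 in the adult libraries. Here fetal replicate 3 was the highest fetal library, unlike in most of the genes. Cacna1b, the pore subunit of a voltage-gated calcium channel best known from neurons, averaged 220.2 ± 16.3 in neonatal, 88.5 ± 19.3 in fetal and 80.1 ± 8.06 in adult libraries. Ramp1, the accessory protein that turns the calcitonin receptor-like receptor into a receptor for the vasodilator CGRP, averaged 818 ± 74.8, 301 ± 153 and 255 ± 30.7 in the same order. Of 52 tested genes on its list of G protein-coupled receptors, 11 were higher and 16 lower in neonatal than fetal libraries by edgeR. Against adult libraries 18 were higher and 20 lower. Of all genes tested, 18.3% and 18% were higher and lower than in fetal, and 31.8% and 31.6% than in adult libraries.

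Contractile and mural marker genes were among the 85 as well. Myh11, the smooth muscle myosin heavy chain, had 5121, 5353 and 2369 in the fetal, 8749, 8699.5 and 8579 in the neonatal and 1595, 3239.6 and 3562 in the adult libraries. Lmod1, which nucleates actin filaments in smooth muscle, had 1879.7, 1932 and 927 in the fetal, 3723, 3646 and 3643 in the neonatal and 797, 1589 and 1699 in the adult libraries. Rgs5, a regulator of G protein signalling and a pericyte marker, had 73.7, 63.5 and 7.18 in the fetal, 146, 128 and 121 in the neonatal and 18.1, 31.7 and 26.7 in the adult libraries, so its fetal libraries 1 and 2 lay above the adult ones and fetal replicate 3 below them. Adult replicate 1 was the lowest adult library for all 3. Dgkg, a diacylglycerol kinase, averaged 131 ± 13.2 in neonatal, 50.1 ± 15.9 in fetal and 14.3 ± 2.15 in adult libraries.

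Not every gene of that apparatus peaked at birth. Of 12 mural markers, 5 are among the 85 (Myh11, Rgs5, Abcc9, Notch3 and Lmod1). Of the 12, 4 were higher and 2 lower in neonatal than fetal libraries (18.3% and 18% of all genes tested), and 10 were higher and 1 lower than in adult ones (31.8% and 31.6% of all genes tested). The 7 outside the 85 genes went in both directions. Kcnj8, the pore subunit of the ATP-sensitive potassium channel, was higher in neonatal than fetal libraries by a log2 fold change of 1.58 (SE 0.36, adjusted p = 0.00877) in edgeR's quasi-likelihood test, and Mcam, a mural adhesion molecule, was at 0.72 (SE 0.35, adjusted p = 0.135). The 7 also included Actg2, the enteric smooth muscle actin, and Des, the muscle intermediate filament protein, which were lower in neonatal than fetal libraries by a log2 fold change of -2.00 (SE 0.15, adjusted p = 3.76e-05) and -0.72 (SE 0.10, adjusted p = 0.00105) in the same edgeR test. Without fetal replicate 3, an alternative chosen after seeing the data, Actg2, Des and Kcnj8 were at -2.13, -0.79 and 1.29 and stayed past the threshold. Cnn1, calponin, averaged 6630.1 ± 56.7 in neonatal libraries, 12637 ± 469 in fetal and 1379 ± 698 in adult ones, a neonatal to fetal log2 fold change of -0.92 (SE 0.34, adjusted p = 0.0611) by edgeR. The 12 markers summed to 42310 to 62975 in fetal, 56358 to 57630 in neonatal and 6513 to 13978 in adult libraries. Without the 5 they summed to 38034 to 51042, 34512 to 35461 and 2803 to 6777. Of 30 tested genes of the smooth muscle contractile apparatus, which include Myh11 and Lmod1, 8 were higher, or 5 without fetal replicate 3, and 8 lower in neonatal than fetal libraries, beside 18.3% and 18% of all 11337 genes tested. Against adult libraries 27 of the 30 were higher and the other 3 (Pdlim3, Pdlim7 and Ppp1r14a) missed the threshold, beside 31.8% of all genes higher and 31.6% lower; scaled by library size alone, 25 were higher and 1 lower. The rule used both of these contrasts, so such counts describe the lists only.

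Receptors and ligands of vessel signalling were also taken by the rule. Notch3 had 4661, 4308 and 658 in the fetal, 8736, 9647 and 9352 in the neonatal and 1138, 1782 and 1789 in the adult libraries. Its ligand Jag1 had 3489, 3707 and 781 in the fetal, 6608, 6757 and 6252 in the neonatal and 1804, 2024 and 2101 in the adult libraries. Fetal replicates 1 and 2 were above every adult library in both, and fetal replicate 3, at 658 and 781, was below every one. Angpt2, the ligand that antagonises Angpt1 at the Tie2 receptor of endothelium, had 120.1, 137 and 34.1 in the fetal, 288, 249 and 274 in the neonatal and 47.7, 78.1 and 58.4 in the adult libraries. Gja4, the vascular connexin 37, averaged 297 ± 14.3 in neonatal, 114 ± 58.2 in fetal and 112 ± 6.64 in adult libraries. The 11 endothelial markers summed to 3277 to 3918 in fetal, 2377 to 2401 in neonatal and 2929 to 3358 in adult libraries, so their sum was lowest in the neonatal ones. Of the 9 tested, 4 were higher and 1 lower in neonatal than fetal libraries (18.3% and 18% of all genes tested), with a median log2 fold change of 1.02. Kdr and Tek, the Tie2 gene, were higher than at both other ages (4.53% of all genes tested). Against adult libraries 3 of the 9 were higher and 5 lower (31.8% and 31.6% of all genes tested). Cldn5 was at 0 in all fetal libraries.

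Of 14 tested genes of the pathway, Notch3 and Jag1 included, 1 was higher and 3 lower in neonatal than fetal libraries (18.3% and 18% of all genes tested), and 5 were higher and 4 lower than in adult ones (31.8% and 31.6% of all genes tested), by edgeR's quasi-likelihood test. The 1 higher than fetal was Heyl, a Notch target, with 1675 ± 65.5 in neonatal, 527 ± 219 in fetal and 1005 ± 427 in adult libraries. Without fetal replicate 3, 3 were higher, and Heyl was at a log2 fold change of 1.37 (edgeR, adjusted p = 0.0335). Fzd4, a Wnt and norrin receptor, averaged 3119.6 ± 25.1 in neonatal, 1221 ± 381 in fetal and 1398 ± 128 in adult libraries. Of 37 tested Wnt pathway genes 6 were higher and 12 lower in neonatal than fetal libraries (18.3% and 18% of all genes tested). Against adult libraries 14 of them were higher and 7 lower (31.8% and 31.6% of all genes tested). Tgfb3, a transforming growth factor, had 19043, 19038 and 7843 in the fetal, 28838, 29318 and 29145 in the neonatal and 5568, 10185 and 12604 in the adult libraries. Of 29 tested TGF-beta pathway genes 8 were higher and 6 lower in neonatal than fetal libraries. Against adult libraries 11 of them were higher and 10 lower, beside the same shares of all genes.

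Matrix genes included the most abundant of the 85. Col3a1, the fibrillar collagen III of distensible tissue, had 267644, 266521 and 123223 in the fetal, 499276, 529884 and 521514 in the neonatal and 137500.0, 166137 and 176638 in the adult libraries, which is 2.92% ± 0.0786 of all counts in neonatal, 1.36% ± 0.447 in fetal and 0.937% ± 0.132 in adult libraries. Col4a1, a chain of basement membrane collagen IV, had 129012, 130823 and 73713 in the fetal, 221444, 233878 and 232692 in the neonatal and 89920.1, 91150.2 and 89991 in the adult libraries. Col14a1, a collagen that sits on fibril surfaces, had 22197, 23676 and 6452 in the fetal, 51375, 53262 and 50972 in the neonatal and 23760.1, 17122 and 16857 in the adult libraries, with adult replicate 1 next below the neonatal libraries. Col5a3, a minor chain of collagen V that helps start fibrils, averaged 3245 ± 203 in neonatal, 1551 ± 194 in fetal and 1287 ± 434 in adult libraries. Of 24 tested collagen genes 7 were higher and 5 lower in neonatal than fetal libraries (18.3% and 18% of all genes tested), and 15 were higher and 2 lower than in adult ones (31.8% and 31.6% of all genes tested). These 4 were the only collagens called higher than at both other ages, beside 4.53% of all genes tested, while 4.01% were called lower than at both. The rule chose these 4 for being highest in neonatal libraries, so their calls describe the list and are no separate finding.

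Matricellular proteins, which bind collagen and cells without bearing load, gave 3 more genes. Sparc, a collagen-binding glycoprotein, had 143712, 146672 and 77499.8 in the fetal, 238456, 239479 and 236637 in the neonatal and 106954, 122251 and 133381 in the adult libraries. Its neonatal libraries differed by an SD of 1439 on a mean of 238190.0. Per kilobase of exon Sparc was the highest of the 85 genes in neonatal libraries, with 6996 CPM per kilobase, followed by Col3a1 with 6459, Col4a1 with 2077 and Itgb1 with 1969. Nov, the CCN family member now named Ccn3, had 9729.8, 9752 and 1284 in the fetal, 20845, 21028 and 20595 in the neonatal and 8605, 8140.5 and 7893 in the adult libraries, and it was in fetal replicate 3 that it was lowest. Smoc1, a SPARC-related calcium-binding protein of basement membranes, had 1945, 1874 and 314 in the fetal, 3032, 2987 and 2988 in the neonatal and 738, 1066 and 1185 in the adult libraries, again with fetal replicate 3 under every adult library. Of 25 tested matricellular genes 5 were higher and 4 lower in neonatal than fetal libraries (18.3% and 18% of all genes tested), and 8 were higher and 7 lower than in adult ones (31.8% and 31.6% of all genes tested). The 5 became 9 without fetal replicate 3.

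Basement membrane and other matrix genes peaked as well. Lamc1, the laminin gamma 1 chain, averaged 48098 ± 1367 in neonatal, 24534 ± 6357 in fetal and 17954 ± 763 in adult libraries. Lama4, the laminin alpha 4 chain of vessel basement membranes, averaged 14701 ± 239.9, 8379 ± 1666 and 8799.7 ± 235. Among 11 tested basement membrane genes 5 were higher and 2 lower in neonatal than fetal libraries (18.3% and 18% of all genes tested), and 8 higher and 1 lower than in adult ones (31.8% and 31.6% of all genes tested). Sdc2, a cell surface heparan sulfate proteoglycan, averaged 11886 ± 47.2 in neonatal, 5898 ± 1579 in fetal and 4315 ± 746 in adult libraries. Frem1, an extracellular protein of embryonic basement membranes, averaged 1139 ± 105, 424 ± 160.1 and 424 ± 202. Olfml2b, a secreted olfactomedin domain protein, had 2293, 2186 and 700.1 in the fetal, 7774, 8021 and 7585 in the neonatal and 1402, 2108 and 2277 in the adult libraries, a ratio of 3.31 between its lowest neonatal and highest other library.

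Proteases and other secreted proteins included several of the sharpest peaks. Masp1, a serine protease of the lectin complement pathway, had 228, 267 and 63.7 in the fetal, 795, 697 and 649 in the neonatal and 96.8, 63.5 and 39.4 in the adult libraries. Naalad2, a membrane peptidase, had 29.1, 35.1 and 3.59 in the fetal, 104, 109 and 119 in the neonatal and 10.3, 3.66 and 7.62 in the adult libraries. Scg2, a granin of secretory granules, had 27.3, 36.6 and 6.28 in the fetal, 111, 103 and 121 in the neonatal and 20.6, 29.3 and 21.6 in the adult libraries. Fetal replicate 3 was far below the other fetal libraries in all 3 genes. Plat, tissue plasminogen activator, averaged 10823 ± 178 in neonatal, 6001 ± 1819 in fetal and 4932 ± 651 in adult libraries. Fap, the fibroblast activation protease, averaged 597 ± 15.2, 301 ± 132 and 319 ± 38.7. Of 37 tested proteases and inhibitors 16 were higher and 7 lower in neonatal than fetal libraries (18.3% and 18% of all genes tested), and 12 were higher and 12 lower than in adult ones (31.8% and 31.6% of all genes tested).

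Adhesion genes included a pair of integrin beta chains. Itgb1, the common chain of collagen, laminin and fibronectin receptors, had 66800.4, 72084 and 49331 in the fetal, 116908, 122325 and 123580.0 in the neonatal and 52521, 59419.6 and 59978 in the adult libraries. Itgb3, the chain of the vitronectin receptor, had 541, 617 and 741 in the fetal, 2124, 2154 and 2018 in the neonatal and 424, 385 and 337 in the adult libraries. Fetal replicate 3 was the lowest fetal library for Itgb1 and the highest for Itgb3. Jam2, a junctional adhesion molecule, had 166, 179 and 133 in the fetal, 482, 484 and 450.1 in the neonatal and 114, 98.9 and 109 in the adult libraries. Ceacam1, a cell adhesion receptor of the immunoglobulin family, had 13.6, 15.7 and 0.898 in the fetal, 127, 129 and 139 in the neonatal and 32.3, 25.6 and 36.8 in the adult libraries, with adult above fetal libraries throughout. L1cam, a neural adhesion molecule and 1 of the 9 Schwann and neural crest markers, averaged 192 ± 11.5 in neonatal, 70.3 ± 11.1 in fetal and 57.4 ± 34.1 in adult libraries. The 8 other markers of that list summed to 247 to 282 in fetal, 214 to 248 in neonatal and 268 to 326 in adult libraries. Sema5b, a transmembrane semaphorin, averaged 145 ± 8.1 in neonatal, 86.5 ± 5.69 in fetal and 28.1 ± 12.6 in adult libraries. Among 42 tested cadherin, integrin and junction genes 13 were higher and 12 lower in neonatal than fetal libraries (18.3% and 18% of all genes tested), and 23 higher and 5 lower than in adult ones (31.8% and 31.6% of all genes tested). The 50 tested ion channel genes gave 11 and 12 against fetal and 27 and 8 against adult libraries, beside the same shares of all genes.

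**Figure D3:**
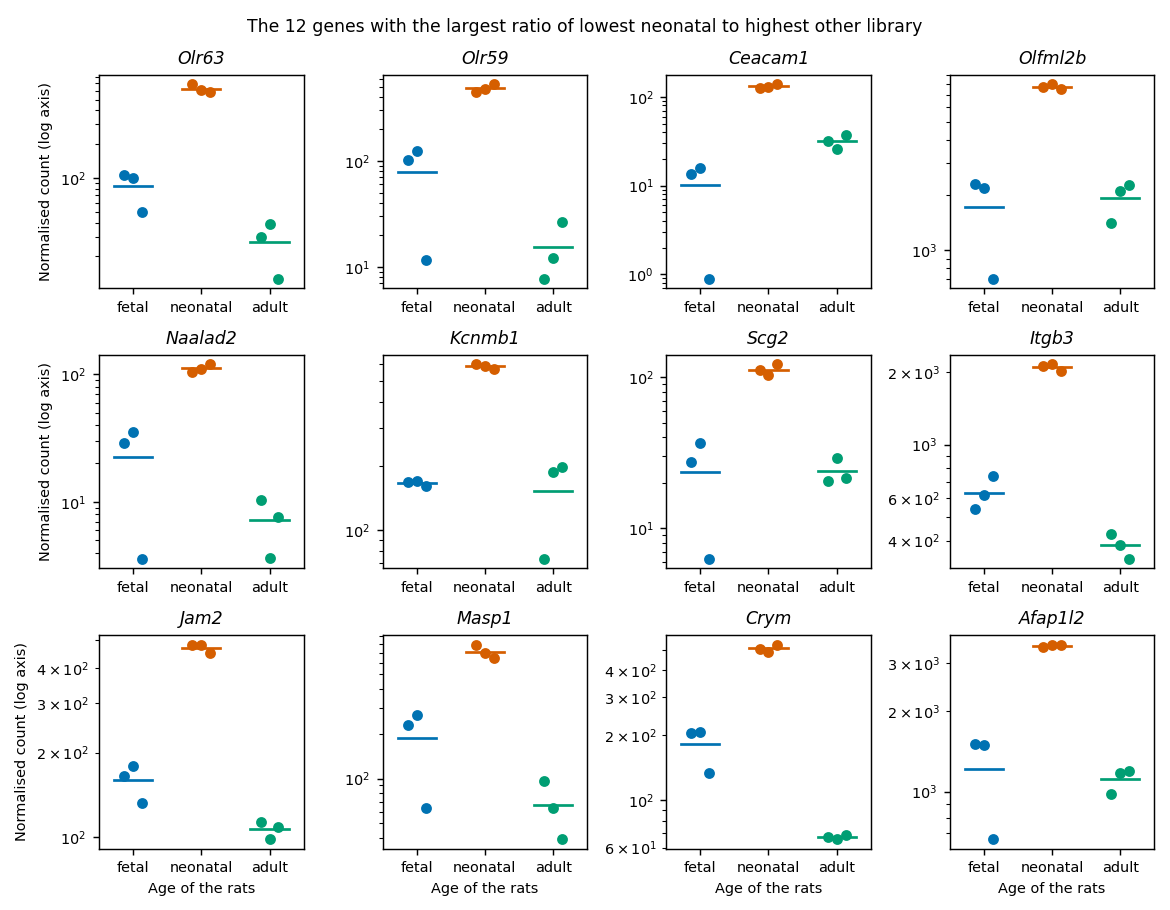
Normalised counts of the 12 genes with the largest ratio of lowest neonatal to highest other library, on logarithmic axes; points are libraries in the order of replicates 1 to 3 and bars are means of 3. Neonatal points stand above all others by the rule, and fetal replicate 3 is the lowest fetal point in 11 of the 12 panels, all but Itgb3.

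The remaining genes of the 12 sharpest were Crym, a thyroid hormone-binding protein, and Afap1l2, an adaptor of Src signalling. Crym had 205, 208 and 134 in the fetal, 502, 489.9 and 528 in the neonatal and 67.1, 65.9 and 68.6 in the adult libraries, which puts its adult libraries within an SD of 1.34. Afap1l2 had 1498, 1487 and 667 in the fetal, 3450.1, 3529 and 3513 in the neonatal and 982, 1169 and 1193 in the adult libraries. Vldlr, the very low density lipoprotein receptor, averaged 16105 ± 297 in neonatal, 6582 ± 3563 in fetal and 8178 ± 1559 in adult libraries. The 2 caveola genes Cav2 and Sdpr, chosen after their values were seen, were 2.21-fold and 2.57-fold the fetal and 3.92-fold and 4.01-fold the adult mean. Grouped by what they encode, a grouping also made after the values were seen, the 11 genes of caveolae, lipid flippases and transporters stood at a median of 2.57-fold the fetal and 1.97-fold the adult mean. The 11 signal adaptors, GTPase regulators and kinases stood at 2.17-fold and 2.35-fold, and the 11 genes of vascular tone and contraction at 2.49-fold and 3.36-fold. Without fetal replicate 3 the medians over the fetal mean were 2.16-fold, 2.05-fold and 2.12-fold for these 3 groups.

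Genes near the threshold show how gradual it is. Just inside were Herpud2, Krt10, Sema5b and Abcc9, with ratios of 1.50019, 1.50036, 1.50417 and 1.50445. Just outside were Fkbp9, Fjx1, Myo10 and Megf10, with 1.49992, 1.4941, 1.4905 and 1.4881. Fkbp9, an endoplasmic reticulum prolyl isomerase, averaged 14443 ± 244 in neonatal, 8294 ± 1939.7 in fetal and 8802 ± 528 in adult libraries.

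Adult against fetal libraries is the comparison that the rule left free in direction, although it held both ages under the same ceiling. By edgeR's quasi-likelihood test with Benjamini-Hochberg adjustment over 11337 genes, 11 of the 85 genes were higher and 18 lower in adult than fetal libraries, and 56 were not past adjusted p under 0.05. That is 12.9% higher and 21.2% lower, beside 34.9% and 35.5% of all genes tested and 34.2% and 36.9% of those with a neonatal mean of at least 100. Their median log2 fold change was -0.13, against -0.01 over all genes. Adult and fetal libraries did not overlap in 23 of the 85 genes (27.1%), against 72.1% of genes with a neonatal mean of at least 100.

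The genes lower in adult libraries included both the receptor and the cyclase pair. In this edgeR test the log2 fold change was -2.36 (SE 0.78, adjusted p = 0.0228) for Olr59 and -1.65 (SE 0.38, adjusted p = 0.00366) for Olr63. For Gucy1a3 it was -1.92 (SE 0.51, adjusted p = 0.0086) and for Gucy1b3 -1.25 (SE 0.29, adjusted p = 0.0042). Dgkg gave -1.81 (SE 0.29, adjusted p = 0.000355), Sema5b -1.62 (SE 0.28, adjusted p = 0.000543) and Masp1 -1.49 (SE 0.50, adjusted p = 0.0252), and Crym -1.44 (SE 0.18, adjusted p = 6.09e-05). Itgb3, Jam2, Abcc9 and Lamc1 were lower by less, at -0.73, -0.57, -0.81 and -0.45. Of the 18 lower calls, 10 held under every alternative run (among them Gucy1a3, Gucy1b3, Olr63, Dgkg, Sema5b, Crym, Itgb3 and Jam2), while Olr59, Masp1, Lamc1 and 5 others were lost under at least 1.

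Genes higher in adult libraries included an amine oxidase, an adhesion receptor and an iron exporter. Aoc3, an amine oxidase of smooth muscle and fat cells also known as vascular adhesion protein, had 675, 703 and 109 in the fetal, 3634, 3760.3 and 3669 in the neonatal and 2084, 2222 and 2369 in the adult libraries, and its log2 fold change was 2.16 (SE 0.52, adjusted p = 0.00471) by edgeR. Ceacam1 gave 1.61 (SE 0.55, adjusted p = 0.0244) and Hils1, a linker histone gene of male germ cells, 1.595 (SE 0.58, adjusted p = 0.0334). Both calls were lost under some alternatives, among them leaving out fetal replicate 3 for Hils1 (adjusted p = 0.0847). Prex2, an exchange factor for Rac, gave 1.48 (SE 0.24, adjusted p = 0.000358), Slc40a1, the iron exporter ferroportin, 1.01 (SE 0.18, adjusted p = 0.000706), and Stard8 0.88 (SE 0.22, adjusted p = 0.00586). These 3 and Aoc3 held under every alternative run. Slc40a1 is known from macrophages as well, whose markers summed to 75622 to 107221 in adult libraries, and the part of those cells in its call was not tested. The genes nearest to no change were Frem1, Scg2 and Pkd1, at -0.01 (SE 0.36), 0.01 (SE 0.49) and 0.02 (SE 0.14). Without fetal replicate 3 Pkd1 was lower, at -0.16 (edgeR, adjusted p = 0.0416).

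**Figure D4:**
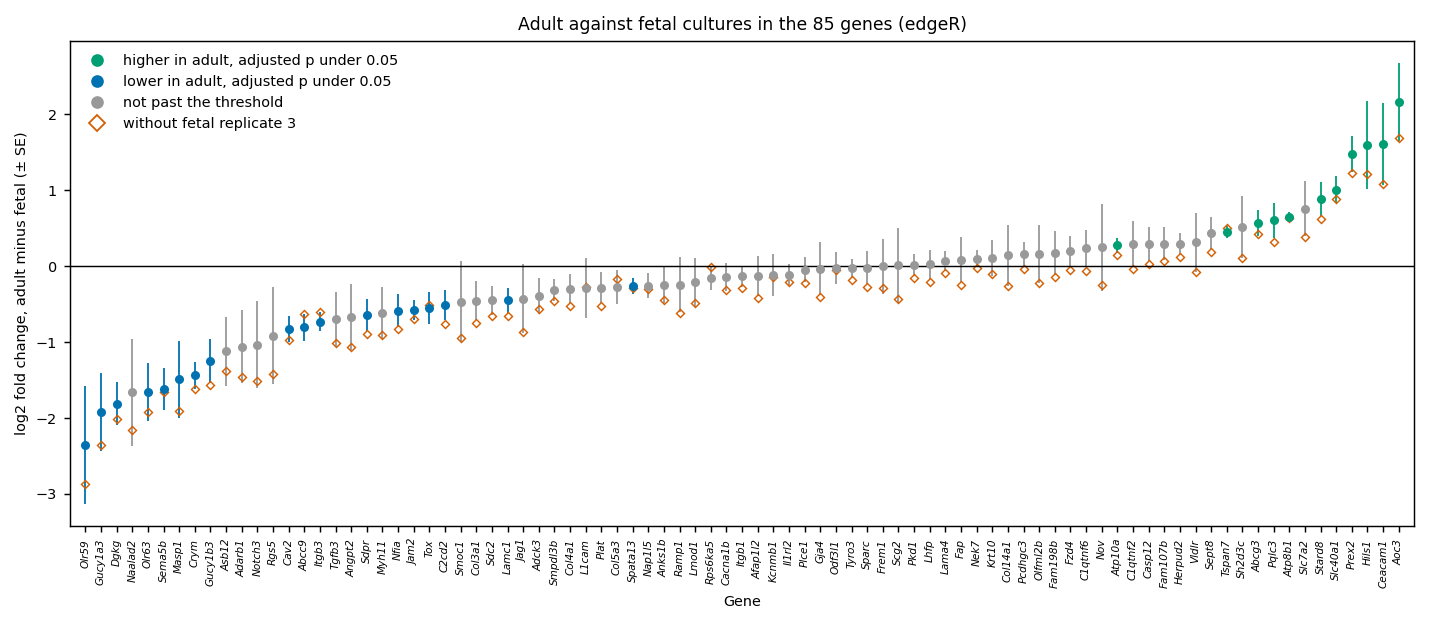
Log2 fold change of adult over fetal libraries for each of the 85 genes, with filled circles and SE bars from edgeR's fit to all 9 libraries and open diamonds from the fit without fetal replicate 3. With all libraries 18 genes are lower (blue) and 11 higher (green), and the diamonds lie below the circles for most genes.

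Without fetal replicate 3, the count of lower genes rose from 18 to 44 (51.8%) and that of higher genes stayed at 11 (12.9%), beside 37.5% and 37.3% of all genes tested in the same fit. Of the 29 calls with all libraries, 28 were made again in the same direction. The median log2 fold change of the 85 genes was then -0.29. Notch3 changed from -1.03 (SE 0.57, adjusted p = 0.133) to -1.52 (SE 0.18, adjusted p = 0.000242), and Jag1 from -0.43 (SE 0.45, adjusted p = 0.414) to -0.87 (SE 0.07, adjusted p = 4.8e-07), by edgeR. Col3a1 went from -0.45 (SE 0.26, adjusted p = 0.143) to -0.74 (SE 0.09, adjusted p = 2.05e-05), and Col4a1 from -0.30 (SE 0.19, adjusted p = 0.187) to -0.53 (SE 0.05, adjusted p = 4.74e-06). Further genes that passed the threshold here and not with all libraries were Rgs5, Angpt2, Smoc1, Ramp1, Plat, Itgb1 and Sparc, at -1.42, -1.07, -0.94, -0.61, -0.52, -0.28 and -0.27. Nov turned from 0.25 to -0.25 (edgeR, adjusted p = 0.00112). Of the 7 genes grouped as Notch, growth factor and Wnt signalling, 6 were lower in this fit (Notch3, Jag1, Angpt2, Tgfb3, Nov and Tyro3). All 6 had missed the threshold with all libraries. The Wnt receptor Fzd4 was not called lower, at -0.05 (edgeR, adjusted p = 0.554). Without fetal replicate 1, 10 genes were higher and 10 lower (33.1% and 34.3% of all genes tested). Without fetal replicate 2, 13 were higher and 10 lower (32.9% and 33.6%). Without adult replicate 2 the counts were 7 higher and 11 lower (32.2% and 32.8% of all genes tested). They were 7 and 13 without adult replicate 3 (33.06% and 33.13%) and 8 and 14 without adult replicate 1 (33.01% and 33.97%).

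Features outside the expression values were also compared. The 85 genes lay on 20 chromosomes, and the largest shares of genes with a neonatal mean of at least 100 were on chromosome 11, with 5 of 220 (2.27%), and chromosome 13, with 6 of 279 (2.15%), beside 0.967% overall. Their median exon length was 3093 bases against 2265. Exons of 4 genes overlap those of others in the annotation, so reads there cannot be assigned with certainty. Pcdhgc3 shares 45.4% of its exon length with 12 other protocadherin gamma genes, Smpdl3b 30.5% with Xkr8 and Abcg3 24.1% with Abcg3l3, while Pkd1 shares 3 bases with Tsc2.

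Promoters of 64 of the 85 genes are in the RefSeq table for GRCr8, as 250 bases before and 50 after the start, and both strands were searched. The short SMAD motif CAGAC was in 57.8% of the 64, against 47.7% of 7236 promoters of genes with a neonatal mean of at least 100 and 49.97% of all 27457. The TEAD motif CATTCC was in 14.1%, against 11.2% and 13.9%, and the AP-1 motif TGANTCA in 7.81%, against 4.64% and 7.33%. TATAAA was in 12.5%, against 5.98% and 14.3%. The CArG box, bound by serum response factor in smooth muscle genes, was in 1 of the 64 (1.56%), the interleukin receptor family gene Il1rl2, against 1.26% and 1.64%, and the long SMAD motif GTCTAGAC was in 0, against 0.180% and 0.215%. These matches are letters in a window and say nothing of binding.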

How the data were processed

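RNA-seq read counts per gene in 9 libraries (3 fetal, 3 neonatal, 3 adult) were deposited by the authors. Per the submitters' processing notes, Trimmomatic 0.39, STAR 2.5.2b, FastQC and DESeq2 were used; per the file headers the counts came from featureCounts 1.6.3 with an rn6 annotation and no strand option. The deposited normalised signal values of 12786 genes, those with at least 10 counts in all, equalled count divided by 1 size factor per library for 100% of values. They chose the 85 genes and are the levels printed.

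The genes and gene lists were chosen with earlier results of these data known. The test ran on the raw counts of all genes in edgeR 4.0.16 under R 4.3.3 (TMM, filterByExpr, robust quasi-likelihood, age only, 11337 genes), with Benjamini-Hochberg adjustment and a threshold of 0.05. Each SE of an edgeR fold change is its absolute log2 value divided by the square root of the test's F statistic. The script was tested on simulated data. Named were the 12 genes with the largest ratio, the 6 with the highest neonatal mean, 4 on each side of the threshold, the 6 largest adult to fetal changes in each direction, the 3 nearest 0, members of a fixed list and neighbours within 100 kb; others were chosen after their values were seen. Alternatives were DESeq2 1.42.0, its size factors, library size only, 2 filters, adult and fetal libraries only, a replicate block, other thresholds and leaving out each library; the median folds and 5 list genes without fetal replicate 3 were added after seeing the data. Each library's deviations from the gene means of its age, in log CPM, were correlated between same-numbered libraries of different ages. The correlations were -0.0649 to 0.0521, so they gave no sign that the numbers pair the libraries. With 3 libraries per age, of which fetal replicate 3 stood apart, they cannot settle whether a weak pairing exists. Symbols followed RefSeq GRCr8: 74 were current, 8 older and 3 unmatched.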

Additional observations from a re-analysis of the deposited data

How the results depend on the processing

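All fold changes of the 85 genes against fetal libraries share the same 3, 1 of which stands apart. The number of calls between adult and fetal libraries depends on that library. With low counts, as in Olr59 or Naalad2 in adult libraries, counting error limits precision. The cause of the changes listed here was not tested unless the alternative itself uses fewer libraries or another threshold.

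The rule gave 22 genes with a ratio of at least 2, 932 with a ratio of at least 1, and 87 to 101 when a library was left out. Leaving out a library can never lower the ratio, and all 85 genes stayed in each time. That range therefore does not measure how stable the list is. The 11 higher and 18 lower calls became 6 and 10 with adult and fetal libraries only (31.5% and 32.2% of all genes tested). When a library was left out, 7 to 13 genes were higher, beside 32.2% to 37.3% of all genes tested. In the same fits 10 to 44 were lower, beside 32.8% to 37.5%. Scaling by library size alone moved the median of all genes from -0.01 to -0.12 and gave 10 higher and 24 lower genes (30.2% and 39.3% of all genes tested). The fit with the replicate block gave 12 higher and 15 lower genes (34.3% and 34.5% of all genes tested), and it moved no count by over 1.5 times. The correlations between same-numbered libraries gave no sign of pairing.

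Fold changes near 0 changed sign. Pkd1 was at -0.0800 by library size, at -0.00838 with no filter and between -0.16 and 0.10 when a library was left out. Scg2 was at -0.0648 by library size, at -0.0112 with no filter and between -0.43 and 0.50, and Frem1 between -0.46 and 0.22. Against fetal libraries, higher smooth muscle genes were 5 by library size and 5 without fetal replicate 3, higher matricellular genes 9 with DESeq2 and 9 without fetal replicate 3, lower proteases 11 with DESeq2 and 11 by library size, higher Notch genes 3 with DESeq2, 2 by library size and 3 without fetal replicate 3, and lower Notch genes 5 with DESeq2. Against adult libraries, lower smooth muscle genes were 1 by library size, and lower basement membrane genes 2 with DESeq2 and 2 without fetal replicate 3. Of the other comparisons of a count or median with its alternative, 183 kept their direction and size within 1.5 times or 1 SD; among the single values rerun, which for adult against fetal libraries cover the 15 genes named by size of change, 221 kept direction and call (or moved by less than the spread of the fetal libraries) and 21 kept direction but missed the threshold, while 13 changed sign, all of Pkd1, Scg2 or Frem1. Genes outside those 15, such as Nov, also changed sign without fetal replicate 3.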
